A study of Mus musculus with 2 samples.

Results

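Regions of open chromatin that lie 1 to 3 kb from a transcription start site (TSS) were examined in regulatory T (Treg) cells with and without transketolase. They are called flank peaks here. The members are all peaks that the authors' annotation placed 1 to 2 kb or 2 to 3 kb from the TSS of the assigned gene, on either side. There were 997 flank peaks among 19680 peaks in the cKO list and 2213 among 34440 peaks in the WT list. The cKO library came from Foxp3cre/+ TKTfl/fl mice and the WT library from Foxp3cre/+ mice, so both groups carried the Cre allele. Both were chimeric female C57BL/6 mice aged 7 weeks, with 50000 CD4+CD25+YFP+ cells sorted from spleen and lymph node. Foxp3 drives Cre, which limits the deletion to cells that have expressed Foxp3, and the sources used here do not say how many animals gave each library. Each genotype had 1 library, so the differences given here are between libraries, with no replicate check and no p-value.

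Treg cells are CD4 T cells that need the factor Foxp3 and hold other immune cells in check. Transketolase, encoded by Tkt, moves carbon units between sugars in the pentose phosphate pathway, which links sugar breakdown to nucleotide synthesis. ATAC-seq marks open chromatin by the insertion of adapters by Tn5 transposase. The DNA next to an active TSS is usually open in any cell that uses the gene, whereas open sites further out are more often enhancers or alternative start sites.

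Some flank peaks hold a start site of their own, although the authors' annotation measured them from another transcript. RefSeq start windows, the 250 bases before to the 50 bases after a gene's start, were touched by 32 of 997 cKO flank peaks (3.21%) and by 44 of 2213 WT flank peaks (1.99%). The same held for 72.5% of cKO and 66.9% of WT peaks within 1 kb of a TSS, for 1.11% of cKO and 1.104% of WT first-intron peaks, and for 3.61% of cKO and 2.84% of WT distal intergenic peaks. Flank peaks thus lay between first-intron and distal intergenic peaks in this, but the order was not clear of counting error. In cKO the Wilson 95% intervals were 2.28 to 4.50 for flank and 3.02 to 4.31 for distal intergenic peaks. In WT they were 1.48 to 2.66 and 2.47 to 3.25, and the WT first-intron interval reached 1.52. A touched window did not always have the start itself inside the peak. The 5 windows below lie wholly inside WT flank peaks and are shown because they are flank regions whose sequence is at hand and include peaks with and without a cKO overlap. They were chosen after their values were seen. Sequences are from RefSeq on GRCm38.p6, written 5′ to 3′ on the gene's strand, with each CG dinucleotide in capitals.
Srebf1: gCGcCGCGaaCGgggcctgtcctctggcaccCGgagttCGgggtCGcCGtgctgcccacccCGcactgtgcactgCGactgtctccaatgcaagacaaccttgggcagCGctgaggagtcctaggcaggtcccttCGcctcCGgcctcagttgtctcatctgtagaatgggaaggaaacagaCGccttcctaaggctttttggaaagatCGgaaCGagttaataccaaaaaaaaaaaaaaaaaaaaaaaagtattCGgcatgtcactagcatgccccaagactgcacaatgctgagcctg
Frrs1: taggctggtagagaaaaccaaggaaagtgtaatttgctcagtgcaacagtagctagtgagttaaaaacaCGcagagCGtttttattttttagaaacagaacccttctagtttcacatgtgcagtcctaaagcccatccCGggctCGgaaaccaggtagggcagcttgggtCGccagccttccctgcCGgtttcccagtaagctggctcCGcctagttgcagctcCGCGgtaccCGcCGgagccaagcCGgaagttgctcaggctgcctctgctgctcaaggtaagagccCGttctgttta
Lims1: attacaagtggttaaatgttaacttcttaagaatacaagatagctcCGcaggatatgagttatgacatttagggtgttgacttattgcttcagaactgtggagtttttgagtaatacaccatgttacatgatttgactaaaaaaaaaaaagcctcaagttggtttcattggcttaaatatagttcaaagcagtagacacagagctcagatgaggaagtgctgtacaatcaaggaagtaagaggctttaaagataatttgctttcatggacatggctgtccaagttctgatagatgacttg
Psmc2: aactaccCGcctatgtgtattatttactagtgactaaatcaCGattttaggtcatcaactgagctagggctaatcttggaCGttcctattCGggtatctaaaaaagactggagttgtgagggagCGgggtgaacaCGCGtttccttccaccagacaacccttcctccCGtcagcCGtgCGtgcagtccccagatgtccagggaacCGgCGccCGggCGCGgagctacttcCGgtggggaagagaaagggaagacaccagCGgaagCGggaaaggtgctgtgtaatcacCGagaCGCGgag
Akap7: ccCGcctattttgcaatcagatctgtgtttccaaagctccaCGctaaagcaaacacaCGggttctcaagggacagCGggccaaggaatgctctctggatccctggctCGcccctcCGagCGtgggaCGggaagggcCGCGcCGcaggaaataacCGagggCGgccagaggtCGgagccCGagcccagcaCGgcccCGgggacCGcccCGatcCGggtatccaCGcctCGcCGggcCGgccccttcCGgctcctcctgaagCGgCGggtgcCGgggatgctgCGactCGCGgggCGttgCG
The Srebf1 window (chr11:60222532-60222831, minus strand) holds 17 CG dinucleotides, the Frrs1 window (chr3:116861430-116861729, plus strand) 13 and the Lims1 window (chr10:58351713-58352012, plus strand) 1. All of these lay in WT flank peaks overlapped by a cKO peak. Srebf1 encodes a transcription factor of lipid synthesis, and Lims1 an adaptor protein of integrin adhesions. The Psmc2 window (chr5:21786497-21786796, plus strand) holds 21 CG dinucleotides and the Akap7 window (chr10:25297030-25297329, minus strand) 33, and no cKO peak overlapped either WT peak. Psmc2 encodes an ATPase subunit of the proteasome, and Akap7 an anchoring protein for protein kinase A. A Dlg3 window with 28 CG dinucleotides and an Rgmb window with 18 are not printed. Both lay wholly inside WT flank peaks overlapped by a cKO peak. CG-rich windows thus lay in WT flank peaks of both kinds. The peaks at the Lims1 and Akap7 windows were assigned by the authors to neighbouring predicted models. In the WT list, 29 of the 44 flank peaks that touched a start window had a cKO overlap (65.9%, Wilson 95% interval 51.1 to 78.1). The share was 41.7% of the 2169 that touched none, and 56.1% of all WT peaks. The score is the authors' own value for each peak and is used only to rank peaks within 1 list. Peaks with a window had the higher median score, 24.4 against 17.7 without. Within score bins (10 equal groups of the WT list by score) the difference in overlap was 12.6 percentage points (interval 4.41 to 20.8). This interval understates the counting error. In most bins the few peaks with a window were all overlapped or all not overlapped, and such bins add no variance for them. Width was not taken into account here.

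Flank peaks were a small class in both lists. They made up 5.07% of the cKO list and 6.43% of the WT list, were assigned to 965 and 2106 genes and covered 0.940 Mb in the cKO list and 2.01 Mb in the WT list. Of them, 554 cKO and 1154 WT peaks lay at 1 to 2 kb, and 443 cKO and 1059 WT peaks at 2 to 3 kb. The upstream side held 445 cKO peaks (44.6%) and 1040 WT peaks (47.0%), so slightly more of them lay downstream, inside or beyond the gene. Among downstream peaks, 153 of 552 in the cKO list (27.7%) and 373 of 1173 in the WT list (31.8%) lay wholly beyond the end of the assigned gene, which means that short genes supply part of this side. When the WT list was reduced to its 19680 highest scores, flank peaks made up 4.90% of it, against 5.07% of the cKO list.

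Flank peaks scored lower than peaks near the TSS in each list. The median score was 9.52 for cKO flank peaks, against 27.7 for cKO peaks within 1 kb and 16.6 for all cKO peaks. In the WT list the medians were 17.8 for flank peaks, 86.8 within 1 kb and 28.1 for all peaks. Other classes away from the TSS had medians near those of flank peaks. They were 9.05 in cKO first introns, 8.65 in cKO later introns and 9.88 in cKO distal intergenic DNA. The WT values were 17.2, 15.4 and 18.9. The lower 5 of 10 equal score bins held 71.0% of cKO flank peaks and 65.5% of WT flank peaks. Flank peaks had a median width of 861 bp in the cKO list and 815 bp in the WT list.

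Nearly all cKO flank peaks lay on open chromatin that was also called in WT cells, while most WT flank peaks had no cKO counterpart. A WT peak overlapped 961 of 997 cKO flank peaks by at least 1 bp (96.4%, Wilson 95% interval 95.04 to 97.4), against 97.6% of all cKO peaks. A cKO peak overlapped 934 of 2213 WT flank peaks (42.2%, interval 40.2 to 44.3), against 56.1% of all WT peaks. Intervals cover counting error only. Library depth is unknown here, and absence from a list may mean only that a region missed the caller's threshold. The lists also differ in length. With the WT list reduced to 19680 peaks, the shares were 73.7% of cKO flank peaks and 73.6% of WT flank peaks, which is nearly the same in both directions. Other classes of the WT list had 79.8% overlapped within 1 kb, 44.5% in first introns, 37.2% in later introns and 42.9% in distal intergenic DNA.

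The overlap of WT flank peaks followed their score. In the lowest WT bin 5.92% of 287 flank peaks were overlapped by a cKO peak, in bin 5 45.3% of 285, in bin 7 83.2% of 226 and in the highest 97.7% of 44. The highest 2 bins held 132 WT flank peaks, and 3 of them lacked a cKO overlap, those of Gm17622, Gm7904 and Gm33838, all predicted models. The Gm33838 peak was 368 bp wide with a score of 4037, far above the other WT flank peaks except the 1 of Gm11168 at 4032. In the cKO list the lowest bin had 86.1% overlapped by a WT peak, and every other bin had at least 96.2%. The plot of overlap by score bin shows the WT flank peaks below the peaks within 1 kb in each bin.

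**Figure D1:**
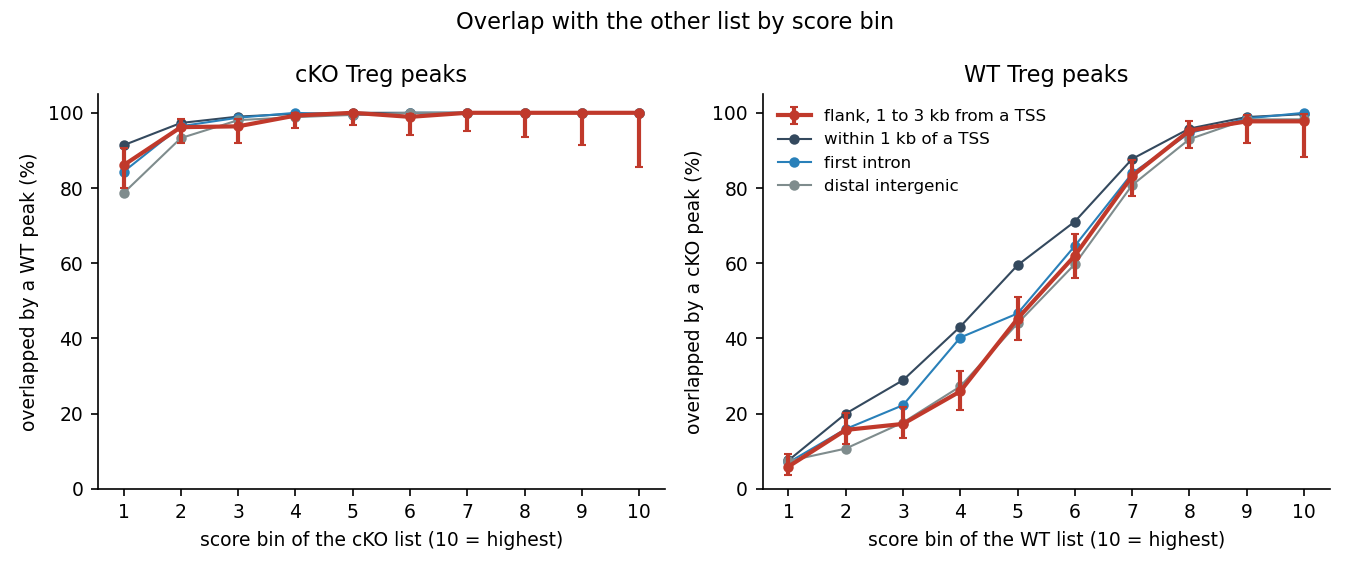
Share of peaks overlapped by a peak of the other list (%), by score bin within the list, for cKO peaks (left) and WT peaks (right); error bars are Wilson 95% intervals of the flank peaks. WT flank peaks run from 5.92% in the lowest bin to 97.7% in the highest and lie below the peaks within 1 kb in each bin. Their widest difference from first-intron peaks is in bin 4, with 25.9% against 40.2%. Distal intergenic peaks are at 27.2% there, and in bin 7 flank and first-intron peaks are at 83.2% and 83.9%.

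Most of the difference between WT flank peaks and the rest of the WT list went with score and width. The overlapped share of flank peaks minus that of all other WT peaks was -14.8 percentage points (interval -16.9 to -12.7). Within score bins the difference was -1.74 (-3.41 to -0.0801), and within score and width bins (4 equal groups by width) it was 0.569 (-0.957 to 2.09), so its sign changed with width. It was also positive, at 0.0878, with both lists restricted to peaks above their median score. Against peaks within 1 kb of a TSS the flank peaks stayed lower, with differences of -7.98 points (-9.89 to -6.08) within score bins and -3.45 (-5.23 to -1.67) with width added. Above the median scores that difference was -2.23, with an interval of -4.94 to 0.479 that holds 0. Against first-intron peaks the difference was -3.20 (-5.29 to -1.10) within score bins and -0.402 (-2.38 to 1.57) with width added, and it was 0.245 above the median scores. Against distal intergenic peaks it was 1.07 (-0.764 to 2.89) and 1.79 (0.104 to 3.48). When distance was taken from the peak centre, a setting chosen after seeing the data, the difference was 4.19 (2.46 to 5.93) against distal intergenic peaks and 1.69 (0.131 to 3.26) against all other peaks, the second of the other sign.

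**Figure D2:**
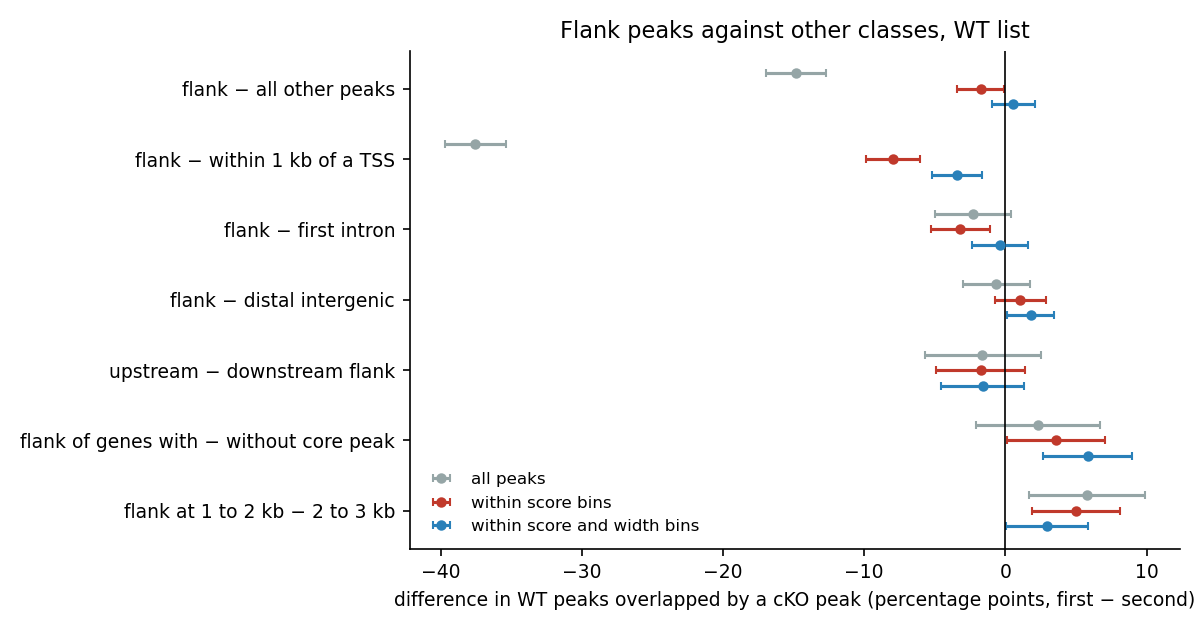
Difference in the overlap of WT peaks with cKO peaks (percentage points, first set minus second) for flank peaks against other classes and for sets of flank peaks, over all peaks (grey), within score bins (red) and within score and width bins (blue), with 95% intervals. The largest difference, against peaks within 1 kb, shrinks to -7.98 within score bins and -3.45 with width added.

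The sides of the TSS could not be told apart, whereas overlap was higher in the nearer than in the farther kilobase by more than the counting error. A cKO peak overlapped 430 of 1040 upstream WT flank peaks (41.3%) and 504 of 1173 downstream ones (43.0%), a difference within score bins of -1.74 points (-4.89 to 1.42). With the WT list reduced to 19680 peaks this difference was 2.08, of the other sign. At 1 to 2 kb 519 of 1154 WT flank peaks were overlapped (45.0%), against 415 of 1059 at 2 to 3 kb (39.2%). That difference was 5.79 points (1.67 to 9.87) over all peaks, 5.00 (1.89 to 8.11) within score bins and 2.94 (0.0578 to 5.82) within score and width bins. It was not among the planned comparisons and, apart from width, was not recomputed under the other settings. The decline was not a smooth one. In the last 250 bp inside the 3 kb limit 36.4% of 269 WT peaks were overlapped (interval 30.9 to 42.3), and in the next 250 bp outside it 43.0% of 265 were (37.2 to 49.04). At the 1 kb limit, 41.3% of 300 WT peaks in the first 250 bp inside the class and 42.7% of 335 in the last 250 bp nearer to the TSS were overlapped. The intervals overlap at both limits. In the cKO list the shares overlapped by a WT peak lay between 93.97% and 98.5% in the same 4 windows.

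**Figure D3:**
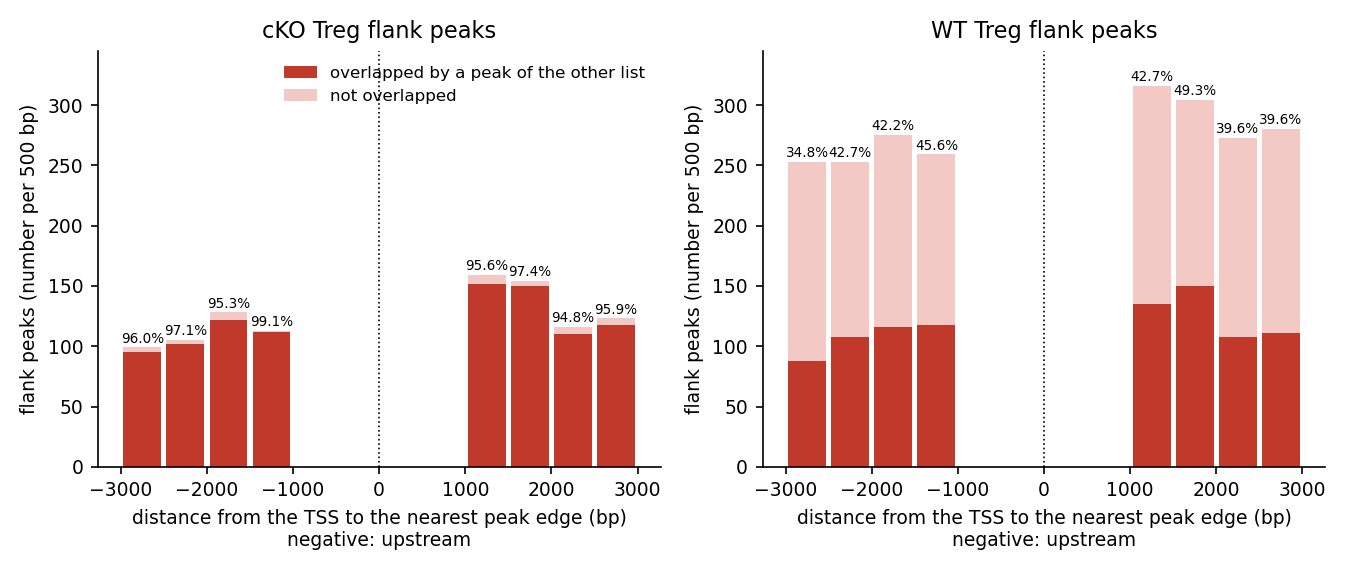
Number of flank peaks per 500 bp of distance from the TSS to the nearest peak edge, for cKO (left) and WT (right), split into peaks overlapped (dark) and not overlapped (light) by the other list, with the overlapped share above each bar. WT shares lie between 34.8% at 2500 to 3000 bp upstream and 49.3% at 1500 to 2000 bp downstream.

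Flank peaks were mostly assigned to genes without a peak at the TSS itself. With predicted gene models set aside, this did not hold in the WT list. A peak within 1 kb of the TSS of the same gene, called a core peak here, was present in the same list for 236 cKO flank peaks (23.7%) and 713 WT flank peaks (32.2%). First introns, later introns and distal intergenic DNA each had a higher share, with 56.6% of cKO and 63.1% of WT peaks in first introns and 33.7% of cKO and 40.9% of WT peaks in distal intergenic DNA. In the WT list reduced to 19680 peaks the share was 23.2%, against 23.7% in the cKO list. By the annotation, a peak that reaches within 1 kb of the TSS is itself a core peak, and the part of this in the share was not tested. Predicted models, such as Gm and Rik genes, took 49.5% of cKO and 50.4% of WT flank peaks, against 18.2% of cKO and 20.8% of WT peaks within 1 kb. The shares were 44.9% of cKO and 44.8% of WT peaks in later introns and 56.4% of cKO and 54.0% of WT peaks in distal intergenic DNA. Among WT flank peaks, 574 of 1098 at other, named genes had a core peak, against 139 of 1115 at predicted models. In the cKO list the counts were 202 of 503 at named genes and 34 of 494 at predicted models. Seen from the genes, 224 of 10063 cKO genes with a core peak also had a flank peak (2.23%), as did 670 of 12358 in WT (5.42%). Where a gene had both, the median distance between them was 1843 bp in the cKO list and 1879 bp in the WT list, from edge to edge.

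**Figure D4:**
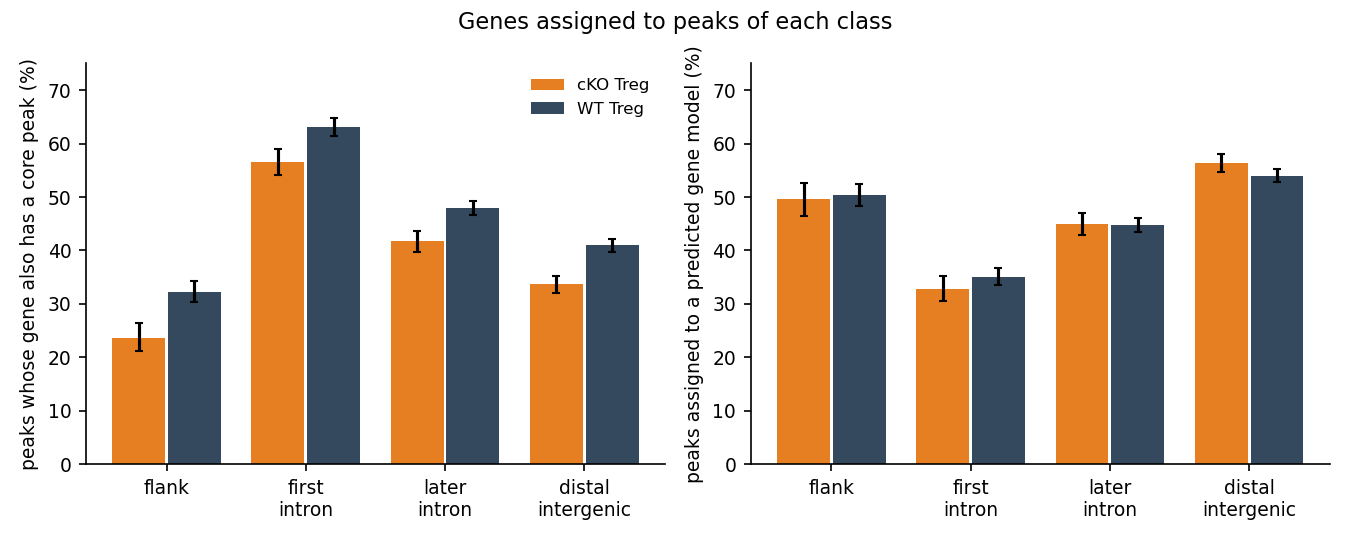
Share of peaks whose gene also has a core peak in the same list (left, %) and share assigned to a predicted gene model (right, %), by class, for cKO (orange) and WT (dark); error bars are Wilson 95% intervals. Flank peaks have the lowest share with a core peak, 23.7% in cKO and 32.2% in WT.

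The overlap of WT flank peaks was set against the presence of a core peak at the same gene, and whether that core peak was itself shared made no detectable difference. WT flank peaks of genes with a core peak were overlapped in 312 of 713 cases (43.8%), against 622 of 1500 for genes without one (41.5%). The difference was 2.29 points (-2.10 to 6.71) over all peaks, 3.57 (0.0814 to 7.06) within score bins and 5.84 (2.69 to 8.998) within score and width bins. The interval within score bins held 0 under 3 settings. It was -0.0550 to 6.87 when 50% of the narrower peak had to be covered, -2.93 to 8.99 with the WT list reduced to 19680 peaks, and -2.04 to 5.40 when a core peak of any gene within 3 kb counted. By side, 146 of 324 upstream WT flank peaks with a core peak were overlapped (45.1%) and 284 of 716 without (39.7%). Downstream, the counts were 166 of 389 with a core peak (42.7%) and 338 of 784 without (43.1%), and the difference between the sides was not tested. Where a cKO peak overlapped the core peak, 228 of 517 WT flank peaks were overlapped (44.1%), and where none did, 84 of 196 were (42.9%). That difference was 1.24 points (-6.93 to 9.23), and -0.662 (-7.18 to 5.86) within score bins. In the cKO list the sets split by side and by presence of a core peak had between 95.05% and 97.8% overlapped by a WT peak.

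The class of a partner peak was not always the same in both lists. Of the 961 overlapped cKO flank peaks, 844 met a WT flank peak and 103 met a WT peak within 1 kb of a TSS (10.7%). In 100 of those 103 pairs the WT peak was the wider one, with medians of 792 bp for the cKO flank peaks and 1387 bp for their WT partners. The WT peak was also the wider one in 703 of the 844 pairs of flank peaks, and a partner that reaches nearer to the TSS tends to be wider by the rule of the classes. The reverse, a WT flank peak whose cKO partner lay within 1 kb, was seen for 31 of 934 (3.32%). Counted by gene, 831 genes had a flank peak in both lists, 134 in the cKO list alone and 1275 in the WT list alone. The 134 genes had 137 cKO flank peaks, of which 104 overlapped a WT peak, 95 of them a WT peak within 1 kb. Narrow peaks were also missing from the cKO list, whose narrowest peak had 465 bp. Of the WT flank peaks, 281 were narrower than that (12.7%), and 12 of those were overlapped (4.27%), against 47.7% of the other 1932. Narrow peaks outside the class had a like overlap. They made up 8.46% of the other WT peaks, and 5.54% of them were overlapped.

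Genes central to Treg cells had flank peaks in both libraries. Tkt itself had no flank peak and 1 peak within 1 kb in each list, and since the position of the floxed part is not given in the sources used here, this checks nothing about the genotypes. Of 12 core Treg genes, 7 had a flank peak in the cKO list, all 7 peaks overlapped by WT. In the WT list 6 had one, with 6 of 7 peaks overlapped by cKO. The shares over all flank peaks were 96.4% in cKO and 42.2% in WT. These genes were chosen with earlier results of these data known. Foxp3, the lineage-defining factor, had an upstream flank peak at chrX:7583390-7584634 in cKO cells (score 17.1, bin 6) and chrX:7583208-7584740 in WT cells (score 55.2, bin 7). Ctla4, an inhibitory receptor, had 1 of 2619 bp in cKO cells, 1772 bp downstream of the TSS (score 18.6, bin 6), and 1 of 3034 bp in WT cells, 1515 bp downstream (score 44.3, bin 7). Flank peaks were thus called at the same places for the lineage factor and for a main suppressive receptor. Ikzf2, which encodes Helios, shared a downstream flank peak (score 12.3, bin 5, in cKO and 59.0, bin 7, in WT). Il2ra, the alpha chain of the IL-2 receptor (CD25), shared 1 in bin 1 of the cKO list and bin 5 of the WT list, and Nt5e, the ectonucleotidase CD73, shared 1 in bin 5 of each.

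At the other flank peaks of core Treg genes the class differed between lists or no overlap was found. Il10, an inhibitory cytokine, had a cKO flank peak of 1462 bp, and the WT peak over it was 2669 bp wide and reached to 737 bp from the TSS, which made it a WT core peak. Tgfb1, another inhibitory cytokine, had a cKO flank peak of 1156 bp inside a WT core peak of 3074 bp. Ikzf2 gave the opposite case, an upstream WT flank peak of 390 bp that a cKO core peak overlapped. Lag3, an inhibitory receptor, had the only flank peak of these genes without overlap, a WT peak of 408 bp in bin 1. Among the wider list of Treg identity genes, Lrrc32 and Ikzf4 shared a flank peak. Tnfrsf4 (OX40), Fgl2 and Capg had WT flank peaks without cKO overlap, in WT bins 2, 4 and 1, and those of Fgl2 and Capg were 424 and 453 bp wide, under the narrowest cKO peak.

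Across 10 lists of T cell, metabolic, chromatin and cell cycle genes, 35 of 292 genes had a flank peak in the cKO list and 53 in the WT list. Of their 39 cKO flank peaks 38 were overlapped by WT, and of their 61 WT flank peaks 33 were overlapped by cKO (54.1%, interval 41.7 to 66.0), against 42.2% of all WT flank peaks. By score, 8 of 23 were overlapped in WT bins 1 to 3, 11 of 22 in bins 4 to 6 and 14 of 16 in bins 7 to 10. All WT flank peaks had 13.1%, 44.2% and 90.5% overlapped in those ranges. Among listed genes with any peak, 13.8% in the cKO list and 19.4% in the WT list had a flank peak, against 5.02% and 8.66% of all genes with a name other than a predicted model. Of the 28 listed WT flank peaks without overlap, 9 were narrower than the narrowest cKO peak (32.1%), against 21.0% of all 1279 such flank peaks. The 4 lists of markers of B cells, myeloid cells, CD8 T and NK cells, and erythroid and stromal cells had 0 flank peaks in either library. They did have other peaks, at 3 cKO and 5 WT genes of 8 B cell markers, 6 cKO and 6 WT of 10 myeloid, 4 cKO and 3 WT of 9 CD8 T and NK, and 6 cKO and 5 WT of 7 erythroid and stromal markers. The defining markers Ms4a1, Pax5, Csf1r, Itgam, Cd8a and Ncr1 had no peak in either list. The Treg markers Foxp3, Il2ra, Ikzf2, Ctla4 and Cd4 had peaks in both lists, and Tnfrsf18 had none in either.

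**Figure D5:**
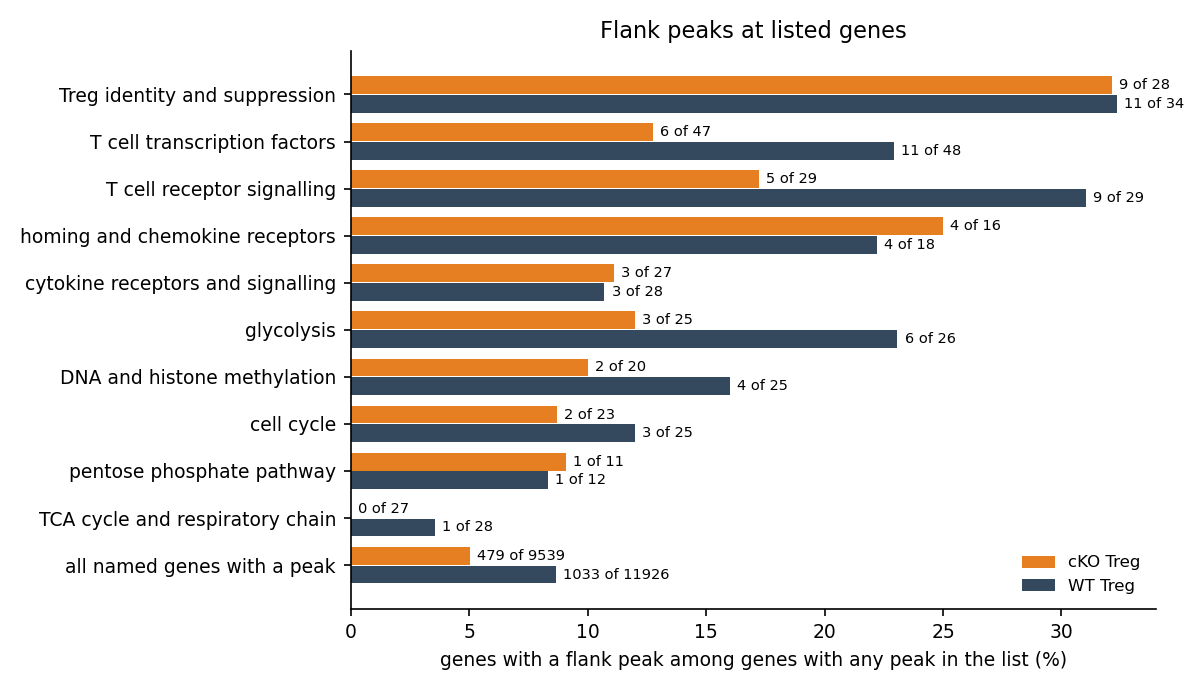
Share of genes with a flank peak among the listed genes that have any peak in the same list (%), for cKO (orange) and WT (dark), with the counts beside each bar. Treg identity genes have flank peaks at 9 of 28 genes in cKO and 11 of 34 in WT, and the bottom pair gives all named genes.

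T cell transcription factors had flank peaks at 6 genes in the cKO list, all 9 peaks overlapped, and at 11 genes in the WT list, 6 of 13 overlapped. Over all flank peaks 96.4% in cKO and 42.2% in WT were overlapped. Nr4a3, a nuclear receptor induced by antigen receptor signals, had a flank peak in bin 9 of each list (score 59.5 in cKO and 122 in WT). Nfkb1, an NF-κB subunit, shared 1 in cKO bin 6 and WT bin 9, and Stat5b, which carries IL-2 signals, shared both of its flank peaks. Klf2, a factor of lymphocyte trafficking, also shared its flank peak. Factors whose WT flank peaks had no cKO overlap included Klf6, Bcl6, Bcl11b, Runx3 and Ets1, and Foxp1 had 1 overlapped and 1 not. The WT peaks of Klf6, Bcl6, Runx3 and Ets1 were 422, 372, 383 and 412 bp wide, all under the cKO minimum of 465 bp. Myb, Nfkb1 and Foxp1 each had a cKO flank peak overlapped by a wider WT core peak.

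T cell receptor signalling genes had 5 cKO flank peaks, 4 of them overlapped, and 10 WT flank peaks, 3 of them overlapped, against 96.4% of all cKO and 42.2% of all WT flank peaks. Cd4, the co-receptor used in the sort, had a flank peak in bin 8 of each list (score 40.0 in cKO and 101 in WT). Csk, a kinase that restrains signals from the receptor, also shared a flank peak. Unshared WT flank peaks belonged to Cd28, Ptprc, Sos1, Cd6, Prkcq, Ptpn22 and Csk, the highest of them Sos1 with a score of 47.6 in WT bin 7. Sos1 activates Ras below the receptor, Cd28 is the main co-stimulatory receptor and Ptprc encodes the phosphatase CD45. The only listed cKO flank peak without a WT overlap was that of Vav1, in cKO bin 1 with a score of 3.61. The Lck kinase had a cKO flank peak of 712 bp that met a WT core peak of 1288 bp.

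Cytokine receptor genes had 3 of 3 cKO and 3 of 3 WT flank peaks overlapped, and homing receptor genes 5 of 5 cKO and 5 of 6 WT flank peaks. Over all flank peaks the shares were 96.4% in cKO and 42.2% in WT. Il4ra and Il21r shared theirs, and the WT flank peak of Il7r, 2959 bp upstream, met a cKO peak 3112 bp upstream, which falls just outside the class. Ccr7, which guides cells to lymph nodes, shared 1, and Selplg, a selectin ligand, shared both of its flank peaks. Ccr6, a chemokine receptor, had 2 WT flank peaks, of which 1 was overlapped. A WT core peak of 4336 bp at Il6st covered a narrower cKO flank peak of 867 bp. The cKO flank peak of S1pr1, of 1027 bp, lay inside a WT peak of 4447 bp that the authors assigned to the predicted model Gm9889.

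Flank peaks of metabolic genes were few, and the flank class as a whole differed in number between lists, with 997 in cKO and 2213 in WT. Among genes with any peak, 12% of glycolysis genes in the cKO list and 23.1% in the WT list had a flank peak. The shares were 9.09% in cKO and 8.33% in WT for the pentose phosphate pathway, against 5.02% in cKO and 8.66% in WT for all named genes. In the pentose phosphate pathway only H6pd had 1, in bin 2 of both lists, with a score of 5.97 in cKO and 7.12 in WT. H6pd is the dehydrogenase that starts the pathway inside the endoplasmic reticulum. Glycolysis genes had 3 cKO flank peaks, all overlapped, and 7 WT flank peaks, 3 overlapped, close to the 42.2% of all WT flank peaks. Pfkm, a phosphofructokinase, Eno1, an enolase, and Hk3, a hexokinase, had the shared ones. The unshared WT peaks were those of Slc16a3, a lactate transporter, Pkm, a pyruvate kinase, Pdha1, a subunit of pyruvate dehydrogenase, and a second peak of Hk3. The TCA cycle and respiratory chain list had 0 flank peaks in the cKO list and 1 in the WT list, at Mdh1, without overlap. Among chromatin genes, Kdm6b, a histone H3 demethylase, had the strongest shared flank peak, in bin 10 of the cKO list and bin 9 of the WT list, and Dot1l shared 1 of 2 WT flank peaks. The WT flank peaks of Dnmt1, the maintenance DNA methyltransferase, and Kmt2d were not overlapped. Ccnd3 and Ccnd1, D-type cyclins, shared theirs, and the WT flank peak of the cell cycle inhibitor Cdkn2a, in bin 1, was not overlapped.

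With predicted models and pseudogenes passed over, the highest scoring WT flank peaks were shared. Upstream these belonged to Kcnn1, a potassium channel gene (cKO partner score 52.8, WT score 296), Plxdc1 (cKO 112, WT 265), Trim7 (cKO 53.4, WT 207), Cfap126 and Sema3b. The cKO partner of the Sema3b peak lay 3118 bp upstream, outside the class. Downstream they belonged to Platr29, Vsig10l, Chd3, a chromatin remodeller (cKO 82.8, WT 249), Fstl3, a binder of activins, and Gpr146. Their cKO partners were all in cKO bins 9 and 10. Among named genes, the highest scoring WT flank peaks without overlap lay lower, in WT bins 7 and 8. Upstream these were Mir7001 (score 71.9), Slc45a4 (65.3), Sgca (61.8), Atad5 (59.7), which acts in the unloading of PCNA from DNA, and Lpcat1 (48.8). Downstream they were Itga2b (101), the platelet integrin chain, Unkl (57.6), Klhl35 (55.8), Prelid2 (55.1) and Psmc2 (53.4), whose start window is printed above.

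A WT overlap was lacking at 36 cKO flank peaks, and all but those of Snora41 and Rsg1 lay in the lowest 3 score bins. The highest scores were 17.5 at Snora41, a small nucleolar RNA gene, in cKO bin 6 and 10.5 at Rsg1 in bin 4. Map10, Cyren and Trav21-dv12, a T cell receptor alpha variable segment, followed in bin 3. Several flank peaks at 1 gene were rare, with 31 of 965 genes in the cKO list and 101 of 2106 in the WT list. Tnfaip8, a regulator of cell death, had the most, with 3 in the cKO list and 4 in the WT list, of which 3 were overlapped. Espn, which encodes an actin-bundling protein, had 2 cKO and 3 WT flank peaks, and the other WT peak met a cKO core peak. Trim7, Chd3 and Cfap126 had 2 in each list, all overlapped.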

How the data were processed

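Peak lists of 1 cKO and 1 WT ATAC-seq library were used. MACS2, BWA, FastQC and Trimmomatic and the build mm10 are named in the submitters' processing notes. The sources used here give no versions, caller settings, Tn5 shift or annotation tool. Peaks were called per library. The authors deposited a score for each peak, with no meaning named in the file headers; a width in bp; and a distance to the TSS of the assigned gene, which is measured from the nearest peak edge. Other columns deposited by the authors gave the class, gene and transcript. Read totals were not used, so depth is unknown.

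Flank peaks were the rows classed as 1 to 2 kb or 2 to 3 kb promoter. Overlap meant at least 1 bp. Score bins were 10 equal groups within each list. Differences within score bins were weighted by the first set named, with normal 95% intervals; shares have Wilson and plain differences Newcombe 95% intervals. Python 3.11.15, pandas 2.3.3, numpy 2.4.6 and scipy 1.17.1 were used. Overlaps were tested against bedtools 2.31.1 and differed at 0 of 19680 cKO and 0 of 34440 WT peaks.

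The members and gene lists were chosen with earlier results of these data known. Named genes were Tkt, the 12 core Treg genes, the highest scoring flank peaks of 5 genes per side and overlap state in WT and of 5 genes without overlap in cKO, the 5 genes with most WT flank peaks, and list members; predicted models were passed over. Listed members beyond the 3 with the highest scores, and predicted models, were named after their values were seen. A comparison of promoter GC content was void, since under 80% of the protein-coding flank genes had a RefSeq window in most sets. No genome was used. Some list members are not reported here by name.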

Additional observations from a re-analysis of the deposited data

How the results depend on the processing

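No paired analysis was possible because each genotype has 1 library, and for the same reason no replicate could be left out. Of 81 values recomputed under 10 settings, 51 stayed within the 95% interval of the value as reported; the others follow, with each change of sign named. Distance from the peak centre was chosen as a setting after seeing the data. Above the median score of each list, overlapped WT flank peaks were 37.2%, flank shares 2.94% (cKO) and 4.44% (WT), shares with a core peak 13.8% (cKO) and 20.9% (WT), and the cKO upstream share 48.8%. There the differences were 0.0878 points against other peaks and 0.245 against first introns, both of the other sign, -2.23 (-4.94 to 0.479) against peaks within 1 kb and 7.89 between flank peaks with and without a core peak. With equal numbers, overlap was 73.7% (cKO flank) and 73.6% (WT flank), the WT flank share 4.90%, the WT share with a core peak 23.2%, and upstream against downstream 2.08, of the other sign. Without WT peaks narrower than 465 bp, WT overlap was 47.7% and the WT flank share 6.15%. By score and width, the differences were 0.569 (other peaks, sign changed), -3.45 (within 1 kb) and -0.402 (first introns). By peak centre, 1208 cKO and 2564 WT peaks were members, WT overlap was 48.6%, flank shares 6.14% (cKO) and 7.44% (WT), core shares 20.4% (cKO) and 27.7% (WT) and the WT upstream share 44.7%. The differences were then 1.69 (other peaks) and 0.0354 (first introns), both of the other sign, -4.27 (within 1 kb) and 4.19 (intergenic). The cause of these shifts was not tested, beyond the smaller or redefined sets that each setting makes. Depth is unknown, which limits what the absence of a peak shows.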
